A study of Mus musculus with 4 samples.

Results

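The genes described here are 10 genes that mark endothelial cells, the cells lining blood vessels, measured in the testes of mice in which the antizyme inhibitor gene Azin2 is disrupted. The members were set by name (Cdh5, Pecam1, Esam, Emcn, Kdr, Tek, Tie1, Eng, Robo4 and Vwf), and each was read from the probe set that the array's annotation pairs with it. All 10 had exactly 1 probe set, and none shared its probe set with another gene, out of 18820 genes that had a value of their own. Whole testes of adult Azin2 KO mice and of adult WT mice were compared on 4 Affymetrix Mouse Gene 1.1 ST arrays, 2 arrays for each genotype, with RNA from 3 mice pooled on each array. The KO mice have both copies of Azin2 interrupted by a β-Geo cassette, on a background described as mixed C57BL/6, which leaves a fusion transcript under the Azin2 promoter, and the study calls them knock-out in its methods and in places hypomorphic. Both genotypes were adult males, no treatment is named for either, and neither the labels nor the methods say whether the WT mice were littermates. The values are log2 signals from RMA, so that differences between groups are log2 ratios.

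Endothelial cells of the testis line the arteries, the veins and the capillaries of the interstitium, where they lie close to the Leydig cells and carry gonadotropins in and testosterone out. VE-cadherin, PECAM-1 and ESAM hold these cells together at their junctions. Growth and survival of the vessel depend on VEGF acting through VEGFR2 and on angiopoietins acting through TIE2, with TIE1 as a partner of TIE2, while endoglin serves as a co-receptor for BMP9 and BMP10. Transcription factors of the ETS family, such as ERG and FLI1, bind a GGAA core and maintain the expression of many of these genes. The arrays were run to ask which transcripts of the testis differ between KO and WT mice.

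The promoters of 3 members are shown because Emcn and Robo4 had KO and WT arrays that did not overlap, in opposite directions, and because Tie1 is the member nearest to Azin2. Of the 10 members, 6 have an entry in the RefSeq promoter table (GRCm38.p6), which runs from 250 bases before to 50 bases after the start of a gene, and 4 (Pecam1, Cdh5, Vwf and Esam) were not shown. Capitals mark the ETS core GGAA or its reverse complement TTCC, searched on both strands.
Emcn promoter, chr3:137340828-137341127, plus strand: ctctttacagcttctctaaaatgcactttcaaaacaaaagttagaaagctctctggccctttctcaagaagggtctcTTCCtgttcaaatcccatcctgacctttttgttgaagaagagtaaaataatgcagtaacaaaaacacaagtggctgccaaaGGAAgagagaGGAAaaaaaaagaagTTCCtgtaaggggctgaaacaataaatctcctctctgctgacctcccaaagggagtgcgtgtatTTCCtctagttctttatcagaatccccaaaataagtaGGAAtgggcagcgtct
Robo4 promoter, chr9:37401722-37402021, plus strand: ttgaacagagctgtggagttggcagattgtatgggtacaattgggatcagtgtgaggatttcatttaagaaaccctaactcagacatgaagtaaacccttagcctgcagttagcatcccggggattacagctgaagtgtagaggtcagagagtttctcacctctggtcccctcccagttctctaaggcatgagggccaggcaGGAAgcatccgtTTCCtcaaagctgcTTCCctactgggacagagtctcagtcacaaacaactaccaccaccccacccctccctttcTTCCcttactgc
Tie1 promoter, chr4:118489800-118490099, minus strand: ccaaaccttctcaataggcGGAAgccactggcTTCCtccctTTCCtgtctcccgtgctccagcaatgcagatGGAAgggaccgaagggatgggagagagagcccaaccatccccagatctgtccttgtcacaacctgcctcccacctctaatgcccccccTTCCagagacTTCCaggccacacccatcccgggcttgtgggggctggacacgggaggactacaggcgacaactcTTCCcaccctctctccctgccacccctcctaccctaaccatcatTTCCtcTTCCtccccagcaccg
The Tie1 window held 9 matches, the Emcn window 6 and the Robo4 window 4. The other promoters held 5 (Kdr), 4 (Eng) and 2 (Tek) matches. GGAA is short and is found in 96.0% of the 32851 promoters of the table, with a median of 3 matches and 1 to 7 matches between the 5th and the 95th percentile, so only Tie1 lay above that range. A GATA match, which has the letters of the core bound by GATA2, was found in 3 of the 6 windows (Emcn, Kdr and Tek) and in 57.9% of all promoters. A match describes the letters of the window and is not a measured binding site.

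The labels were checked on the targeted gene. Azin2 had log2 signals of 7.25 ± 0.16 in KO testes, against 10.08 ± 0.11 in WT testes (SD, n = 2 pools each), a difference of -2.83 (standard error 0.10, adjusted p = 0.025 from limma), and it was the 1 probe set of 23099 named ones past an adjusted p of 0.05 (0.00433%). Leaving out WT replicate 1 took its adjusted p from limma to 0.294 at a difference of -2.75, leaving out WT replicate 2 to 0.232 at -2.91, and the ordinary equal-variance test gave 0.868. Over all rows, the array medians ran from 6.08 to 6.11. All 10 endothelial genes gave a signal above the 95th percentile of probe sets that should be silent in most of the testis. The 1006 probe sets of olfactory receptor genes had a median of 4.30 and a 95th percentile of 5.22, and each member lay above 5.22 on every array. Robo4 and Kdr, with mean signals of 5.44 and 5.50, lay closest to that level. At the same time 8 of the 10 lay below 7.09, the median of the named probe sets, and the other 2 were Cdh5 and Eng. A signal near the background makes a fold look smaller than it is, so that the differences below are differences of array signal. In whole tissue, fewer endothelial cells and less RNA per endothelial cell cannot be told apart. Signal from other cells that carry a member, such as platelets and leukocytes for Pecam1, cannot be separated either.

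No endothelial gene passed the test between the genotypes, and the measured differences were small. Of the 10 members, 0 passed an adjusted p of 0.05 from limma (all at an adjusted p of 0.9995), 0 passed the thresholds of the study, 1.5-fold or more with an unadjusted p under 0.05 (met by 0.0823% of the named probe sets), and 0 had an unadjusted p under 0.05 (4.10% of the named probe sets). The differences ran from -0.13 for Vwf to 0.09 for Robo4. Their median was -0.06, beside 0.01 over all genes, and 7 of the 10 lay below 0, where 43.1% of the named probe sets did. The 95% confidence intervals of all 10 members lay inside a fold of 1.5 in either direction, with the outermost bounds at a KO signal of 0.76 times the WT signal and of 1.19 times the WT signal, both from Cdh5. These intervals come from limma, which moderates each variance towards that of the other probe sets. With 2 arrays a group the exact permutation test of a single gene cannot give a two-sided p below 0.333.

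**Figure D1:**
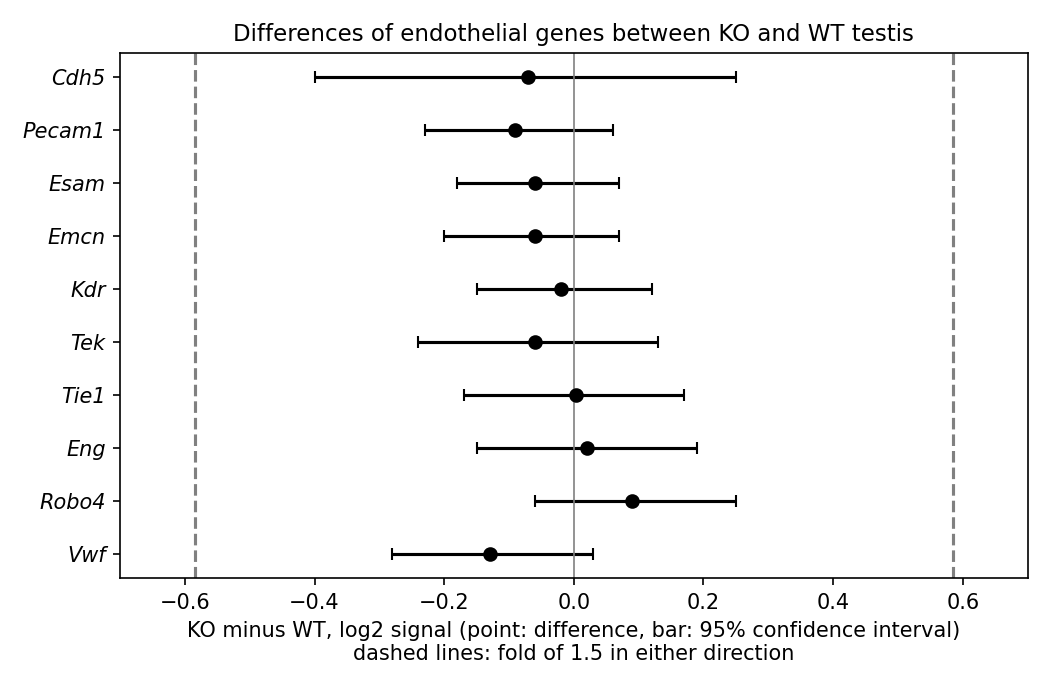
Difference of KO minus WT testes in log2 signal (horizontal axis) for the 10 endothelial genes. Points are differences, bars 95% confidence intervals from limma and dashed lines a fold of 1.5; every interval includes 0 and none reaches a dashed line, the widest being that of Cdh5 from -0.40 to 0.25.

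Among the genes of the endothelial junction, Cdh5 encodes VE-cadherin, the adhesive protein of endothelial adherens junctions. Its signals were 7.56 and 7.89 in KO testes, against 7.87 and 7.73 in WT testes. KO replicate 1 was the lowest of the 4 arrays and KO replicate 2 the highest, so that the gap of 0.33 between the KO arrays was wider than the difference of -0.07 between the genotypes (standard error 0.12). With KO replicate 1 left out this difference became 0.09, and with KO replicate 2 left out -0.24. Leaving out WT replicate 1 gave 0.000065, and leaving out WT replicate 2 gave -0.15. Pecam1 encodes PECAM-1 (CD31), which joins endothelial cells and is also carried by platelets and leukocytes. It was at 5.97 and 5.96 in KO testes, against 6.10 and 6.01 in WT testes. Both KO arrays lay below both WT arrays, by a mean of 0.09 that was no wider than the gap between the WT arrays (also 0.09). Esam encodes a tight junction adhesion molecule of endothelial cells and platelets, and had signals of 6.66 and 6.67 in KO testes, against 6.74 and 6.70 in WT testes. The arrays of the genotypes did not overlap, and the difference of -0.06 (standard error 0.05) was larger than the gaps within the genotypes, at most 0.04. Emcn encodes endomucin, a sialomucin of the surface of capillaries and veins that hinders the adhesion of leukocytes. Its signals were 6.58 and 6.62 in KO testes, against 6.64 and 6.70 in WT testes. Again the KO arrays lay below the WT arrays, with a difference of -0.06 (standard error 0.05) that before rounding was slightly wider than the widest gap within a genotype (0.06).

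The receptor genes Kdr, Tek, Tie1 and Eng had differences between -0.06 and 0.02. Kdr encodes VEGFR2, the main signalling receptor of VEGF-A, and was at 5.49 and 5.50 in KO testes, against 5.55 and 5.47 in WT testes. The KO arrays lay between the WT arrays, with a difference of -0.02 (standard error 0.05). Tek encodes TIE2, the receptor of the angiopoietins, and gave 6.04 and 6.13 in KO testes, against 6.07 and 6.21 in WT testes. Its difference of -0.06 (standard error 0.07) was smaller than the gap of 0.14 between the WT arrays. Tie1 encodes a receptor that binds no angiopoietin by itself and modulates TIE2, and its signals were 5.58 and 5.72 in KO testes, against 5.63 and 5.66 in WT testes. The WT arrays lay between the KO arrays, and the difference of 0.004 was the smallest of the 10 (95% confidence interval from -0.17 to 0.17). Tie1 and Tek are the 2 members on chromosome 4, the chromosome of Azin2, at 10.5 Mb and 34.1 Mb from it in GRCm38.p6. Eng encodes endoglin and had 7.87 and 7.73 in KO testes, against 7.80 and 7.76 in WT testes. Both WT arrays again lay between the KO arrays, with a difference of 0.02 (standard error 0.07).

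Robo4 and Vwf were the members at the ends of the range. Robo4 encodes a roundabout receptor restricted largely to endothelium, which stabilizes the vessel wall. It was the one member whose KO arrays both lay above its WT arrays. Its signals were 5.44 and 5.54 in KO testes, against 5.43 and 5.37 in WT testes. They lay little above 5.22, the 95th percentile of the olfactory receptor probe sets, and KO replicate 1 and WT replicate 1 were nearly equal. The difference of Robo4, 0.09 (standard error 0.06), at an unadjusted p of 0.184 from limma, did not exceed the gap of 0.11 between the KO arrays. Esam lies 114 kb from Robo4 on chromosome 9 in GRCm38.p6, and its arrays stood apart in the other direction. Vwf encodes von Willebrand factor, the protein of Weibel-Palade bodies that tethers platelets, and gave 6.92 and 7.03 in KO testes, against 7.11 and 7.08 in WT testes. Both KO arrays were below both WT arrays, and the difference of -0.13 (standard error 0.06) was larger than the gaps of 0.11 between the KO arrays and 0.03 between the WT arrays. With an unadjusted p of 0.0871 from limma, the smallest among the 10, it did not pass the test. The ends of the range changed when single arrays were left out. The difference of Vwf was -0.07 without KO replicate 1, where Pecam1 was lowest at -0.09, and that of Robo4 was 0.04 without KO replicate 2, where Eng was highest at 0.09 and Cdh5 lowest at -0.24. Robo4 was at 0.15 without KO replicate 1 and at 0.06 without WT replicate 2. Tek was lowest at -0.13 without WT replicate 1, and Cdh5 at -0.15 without WT replicate 2. Counted over the list, the KO arrays lay wholly below the WT arrays for 4 of the 10 (Vwf, Pecam1, Esam and Emcn), where 12.3% of the named probe sets did, and wholly above them for 1 (Robo4), where 20.1% did. In either direction this makes 5 of 10 beside 32.5%. The members were chosen with earlier results of these data known, so these shares only describe them.

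**Figure D2:**
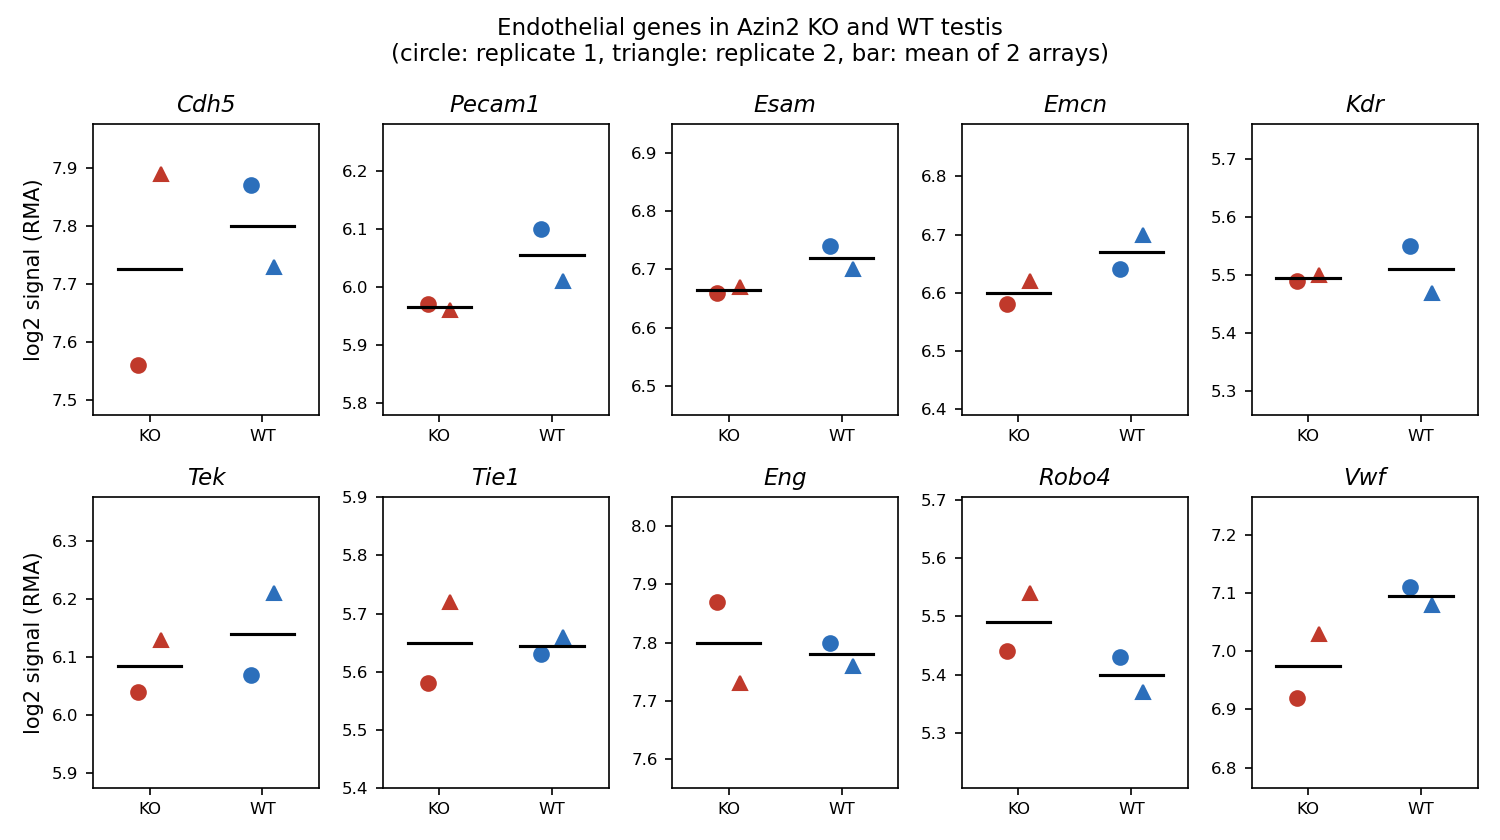
Log2 signal (vertical axis, the same height of scale in each panel) of the 10 endothelial genes on each array. KO arrays are red and stand on the left, WT arrays are blue, and bars are means of 2 arrays; the KO and WT points are apart for Pecam1, Esam, Emcn, Robo4 and Vwf and overlap for the other 5 genes.

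The gaps between the 2 arrays of a genotype were set beside the differences between the genotypes, here and for the single genes above. A gap is between single arrays and a difference is between means of 2 arrays. A gap therefore tends to be the wider of these even without an effect of genotype, and the comparison only describes the values. The median size of the gap between the KO arrays was 0.10 and between the WT arrays 0.06, beside a median size of 0.06 for the difference of KO and WT. KO replicate 1 had the lowest signal of the 4 arrays for 6 of the 10 members (Cdh5, Tek, Vwf, Emcn, Tie1 and Esam), and was below KO replicate 2 for 8 of the 10, all but Pecam1 and Eng. WT replicate 1 was above WT replicate 2 for 7 of the 10 and was the lowest array for 0 of them. Relative to the mean over the 4 arrays, the members averaged -0.05 (replicate 1) and 0.02 (replicate 2) in KO testes, against 0.03 (replicate 1) and 0.0049 (replicate 2) in WT testes. For 3 members (Vwf, Emcn and Esam) the difference between the genotypes was larger than both gaps within them. The share of all named probe sets for which this holds was not counted, so the 3 cannot be called few or many. The median difference of -0.06 was -0.03 without KO replicate 1 and -0.02 without WT replicate 1.

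The ligands and partners of these receptors did not pass the adjusted test either. Of 41 genes listed for 5 pathways of the vessel wall (VEGF, angiopoietin-Tie, endoglin-ALK1, Notch and Slit-Robo), 40 had a value of their own, 16 above and 24 below 0, with a median of -0.02. In this set 0 passed an adjusted p of 0.05 from limma, 6 had an unadjusted p under 0.05 (Vegfa, Vegfd, Jag1, Hey2, Slit1 and Slit2, all lower in KO testes), and 1, Slit2, passed the thresholds of the study. These 6 are 6 of 40 genes, beside 743 of all 18820 genes and 4.10% of the named probe sets. The lists were chosen with earlier results of these data known, so this share is a description and not a test. Jag1, Smad4 and Bmpr2 had mean signals of 9.30, 9.30 and 9.14, above that of every member (at most 7.79, Eng). The counts over these 5 lists are therefore not counts for vessel cells alone.

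For VEGFR2, the ligand gene Vegfa was at 7.06 and 7.08 in KO testes, against 7.19 and 7.29 in WT testes. Both KO arrays were below both WT arrays, at a difference of -0.17 (standard error 0.06). Vegfd, whose product binds VEGFR3 in the mouse, had 7.41 and 7.59 in KO testes, against 7.85 and 7.74 in WT testes. This was the lowest difference of the VEGF list, -0.29 (standard error 0.08). The difference of Vegfc was 0.05, at a signal below the 95th percentile of the olfactory receptor probe sets. Among the other VEGF receptors, the difference of Flt1 (VEGFR1) was 0.03 and that of Flt4 (VEGFR3) was -0.12. The co-receptor genes Nrp1 and Nrp2 had differences of -0.09 and -0.04. The highest difference of the list was that of Vegfb, a ligand of VEGFR1, at 0.10.

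For TIE2, the ligand gene Angpt1 gave 4.30 and 4.37 in KO testes, against 4.36 and 4.33 in WT testes, below the 95th percentile of the olfactory receptor probe sets in both genotypes. Angpt2, the ligand that endothelial cells themselves release, was at 6.35 and 5.92 in KO testes, against 6.30 and 6.38 in WT testes. KO replicate 2 alone was low, and the difference of -0.20 (standard error 0.15) was smaller than the gap between the KO arrays. Ptprb encodes VE-PTP, the phosphatase that acts on TIE2 and VE-cadherin, and its KO arrays, at 6.83 and 6.97, lay below its WT arrays, at 6.98 and 7.01, by a mean of 0.10. The remaining ligand gene, Angpt4, had a difference of 0.0099. For endoglin, the genes of its ligands BMP9 (Gdf2) and BMP10 lay below the 95th percentile of the olfactory receptor probe sets in these testes, and its partner receptor ALK1 (Acvrl1) had a difference of -0.01. In that pathway the 11 measured genes of 12 ran only from -0.05 for the inhibitor gene Smad7 to 0.08 for Smad6, another inhibitor.

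Robo4 belongs to the roundabout family, in which ROBO1 and ROBO2 are receptors of Slit proteins. Slit2 had signals of 6.61 and 7.35 in KO testes, against 7.97 and 8.37 in WT testes, a difference of -1.19 (standard error 0.27, adjusted p = 0.9995 from limma). Slit1 was at 6.14 and 5.86 in KO testes, against 6.33 and 6.61 in WT testes, a difference of -0.48 (standard error 0.13). Slit3, the third ligand gene, was at 8.05 and 8.30 in KO testes, against 8.18 and 8.18 in WT testes, with the WT arrays between the KO arrays. Slit2 is among the genes that the study itself picked from these arrays, and its part in the list is not independent evidence. Beside these 3 ligand genes, Robo4 differed by 0.09, Robo1 by 0.04 and Unc5b, which encodes a binding partner of ROBO4 on endothelial cells, by 0.01. In the Notch list, Jag1, a Notch ligand, had a difference of -0.18 (standard error 0.05), and Hey2, a target gene of Notch in arteries, had 6.08 and 6.08 in KO testes, against 6.29 and 6.31 in WT testes, the lowest difference of the list at -0.22 (standard error 0.05). The other Notch target genes of the list, Hey1 and Hes1, had differences of 0.04 and 0.05, with both KO arrays above both WT arrays for Hes1. The highest difference of the list was that of Jag2, another Notch ligand, at 0.13. The endothelial Notch ligand gene Dll4 and the receptor genes Notch1 and Notch4 had differences of -0.05, -0.12 and -0.01.

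**Figure D3:**
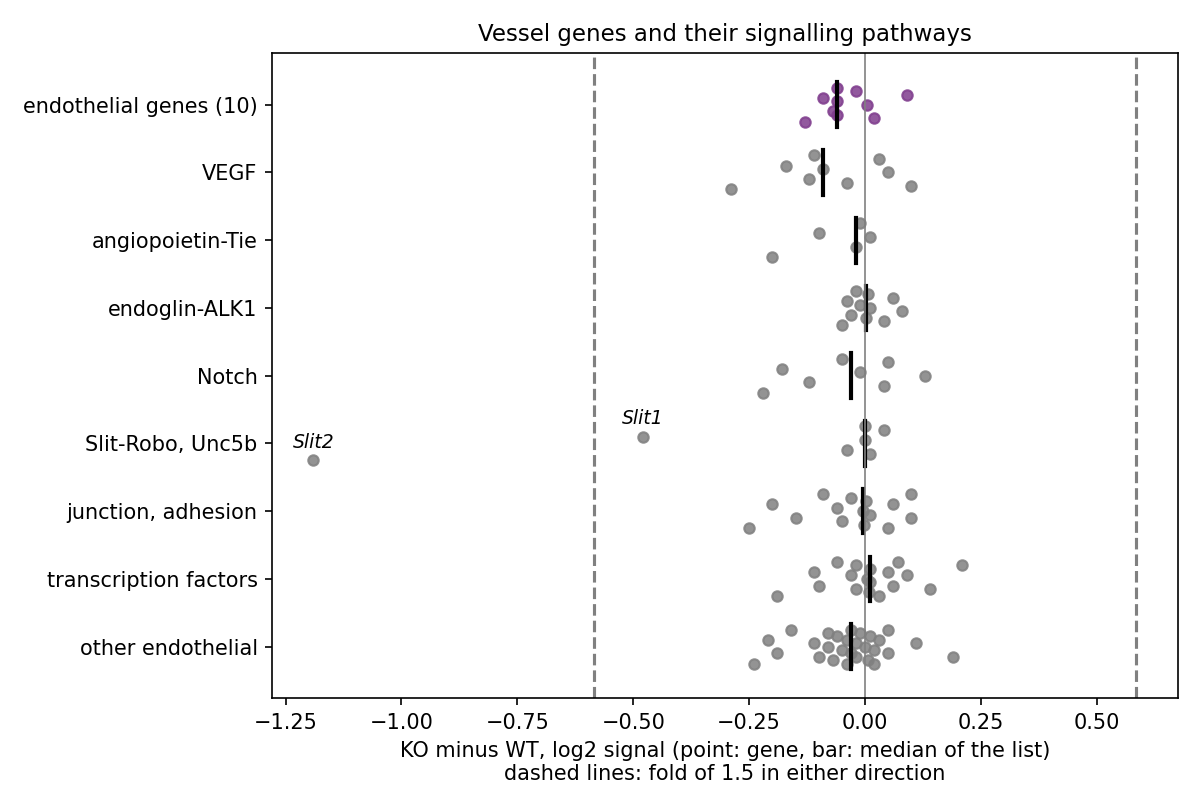
Difference of KO minus WT testes in log2 signal (horizontal axis) for the 10 endothelial genes (purple) and 8 other lists, whose genes are not all specific to vessels (grey). Each point is 1 gene, bars are medians and dashed lines a fold of 1.5; the endothelial genes lie between -0.13 and 0.09, and Slit2 at -1.19 is the gene past a dashed line.

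Further genes expressed in endothelial cells were read from 3 wider lists (junction and adhesion, transcription factors, and other endothelial genes), 61 genes in all with 61 measured. Several of them are not restricted to these cells in the testis. Vcam1, Tjp1 and Jam2 had mean signals of 9.98, 9.77 and 9.44, above that of every member (at most 7.79, Eng). The counts over these lists are therefore not counts for endothelial cells alone. Of the 61, 26 were above and 35 below 0, with a median of -0.02. In this set 0 passed an adjusted p of 0.05 from limma or the thresholds of the study, while 7 had an unadjusted p under 0.05. These 7 of 61 genes stand beside 743 of all 18820 genes and 4.10% of the named probe sets. They were Selp, Vcam1, Ets2, Mmrn2 and Cd93, at lower signals in KO testes, and Sox18 and Gpihbp1, at higher ones. These 3 lists too were chosen with earlier results of these data known, so this share is not a test. Vcam1, which encodes an adhesion molecule for leukocytes, had a difference of -0.20, and Cd93, which encodes a lectin-like endothelial receptor, one of -0.19. Among the binding partners of VE-cadherin, Ctnnb1 (β-catenin), Ctnnd1 (p120) and Jup (plakoglobin) had differences of 0.10, 0.05 and -0.15. These partners are also expressed in other cells of the testis. Cldn5, the claudin of endothelial tight junctions and also a Sertoli cell gene, was at 7.88 and 7.85 in KO testes, against 7.91 and 7.89 in WT testes. The lowest difference among the adhesion genes was that of Selp, which encodes P-selectin, stored with von Willebrand factor in Weibel-Palade bodies. Selp was at 5.30 and 5.30 in KO testes, against 5.55 and 5.56 in WT testes, a difference of -0.25 with an unadjusted p of 0.00309 from limma (standard error 0.05). These signals lay little above 5.22, the 95th percentile of the olfactory receptor probe sets. The highest difference among the adhesion genes was that of Jam2, a junction molecule, at 0.10. Vwf, whose product shares the granule with P-selectin, had the lowest difference of the 10 members, -0.13, at an unadjusted p of 0.0871 from limma. A link between Selp and Vwf was not tested.

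The ETS factor genes, whose core motif is marked in the promoters above, were read in the same way. Erg was at 6.23 and 5.96 in KO testes, against 6.20 and 6.03 in WT testes, and its WT arrays lay between its KO arrays. Fli1 and Ets1 had differences of 0.0088 and 0.0039. Ets2 had the lowest difference of the list, -0.19 (standard error 0.06), and Sox18, which encodes a SOX factor of endothelial cells, the highest, 0.21 (standard error 0.07). The other endothelial genes ran from Mmrn2 at -0.24, which encodes a matrix protein of endothelial cells, to Gpihbp1 at 0.19, which encodes the capillary anchor of lipoprotein lipase.

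Markers of the other cells that a piece of testis can hold were set beside the endothelial genes. The mean level of the 10 members was 6.41 and 6.48 in KO testes, against 6.49 and 6.47 in WT testes. Of 12 pericyte and vascular smooth muscle markers, 6 were above and 6 below 0, with a median difference of -0.0037 and mean levels of 6.72 and 6.78 in KO testes, against 6.77 and 6.74 in WT testes. They ran from -0.16 for Abcc9, a channel subunit of pericytes, to 0.15 for Cnn1, a calponin of smooth muscle. Smooth muscle genes such as Cnn1, Acta2 and Myh11 are not specific to vessel walls in the testis, so this list does not read vessel cells alone. Of 5 measured platelet markers of 9, 3 lay below 0, with mean levels of 5.45 and 5.53 in KO testes, against 5.54 and 5.52 in WT testes. The extremes were Ppbp, a platelet chemokine gene, at -0.24 and Treml1, a platelet granule receptor gene, at 0.11, but the mean signal of Ppbp lay below the 95th percentile of the olfactory receptor probe sets. The gene of the platelet integrin αIIb, Itga2b, had a difference of 0.0099. Of 5 measured lymphatic markers of 6, 3 lay below 0. Mmrn1, which encodes a multimerin and had a mean signal below that percentile too, had the lowest difference of these, -0.17, and Pdpn, which encodes podoplanin, the highest, 0.41, with KO arrays at 6.55 and 7.12 and WT arrays at 6.39 and 6.47.

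The 6 measured Leydig cell markers of 8 all lay below 0, between Hsd3b1 at -0.14 and Cyp17a1 at -0.02, both genes of testosterone synthesis. Relative to the mean over the 4 arrays they averaged -0.17 (replicate 1) and 0.10 (replicate 2) in KO testes, against 0.09 (replicate 1) and -0.02 (replicate 2) in WT testes, so that KO replicate 1 was the lowest array for this list as for the endothelial genes. It was also the lowest for the 11 macrophage markers (-0.22). Among these, Vsig4, a complement receptor gene, had the lowest difference, -1.36, at 5.89 and 5.64 in KO testes, against 6.63 and 7.63 in WT testes. Vsig4 too is among the genes that the study itself picked from these arrays, so its part in the list is not independent evidence. Itgam, an integrin gene at a signal below the 95th percentile of the olfactory receptor probe sets, had the highest difference, 0.05. Without Vsig4, the median difference of the other 10 was -0.11 and their average on KO replicate 1, relative to the 4 arrays, was -0.18. The adipocyte markers (7 of 8 measured) were lowest there too, at -0.28, or at -0.10 without Car3. Car3, a carbonic anhydrase gene, had the lowest difference of that list, -1.24 (standard error 0.52), and Plin1, of the lipid droplet, the highest, 0.04. The signals of Car3 were 6.42 and 7.90 in KO testes, against 8.75 and 8.05 in WT testes, and the gap of 1.48 between its KO arrays was wider than its difference. Fabp4, which capillary endothelium shares with adipocytes, was at 5.64 and 5.81 in KO testes, against 6.13 and 5.95 in WT testes, a difference of -0.31 (standard error 0.09). The 10 Sertoli cell markers all lay above 0, from Clu at 0.01 to Amh at 0.21. Relative to the 4 arrays they averaged -0.02 (replicate 1) and 0.10 (replicate 2) in KO testes, against 0.03 (replicate 1) and -0.12 (replicate 2) in WT testes. For this list KO replicate 1 lay between the WT arrays. The spermatid markers (8 of 9 measured) ran from Prm1 at -0.05 to Izumo1 at 0.04, and averaged lowest on WT replicate 1 (-0.02). The 2 measured red blood cell genes of 7, Slc4a1 and Alas2, had differences of 0.04 and 0.10. For these genes KO replicate 1 was the highest array, at an average of 0.08. The epididymis markers (6 of 7 measured) ran from Rnase10 at -0.11 to Lcn5 at 0.03, and averaged lowest on KO replicate 2 (-0.03). The part of these cell types in the endothelial values was not tested.

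**Figure D4:**
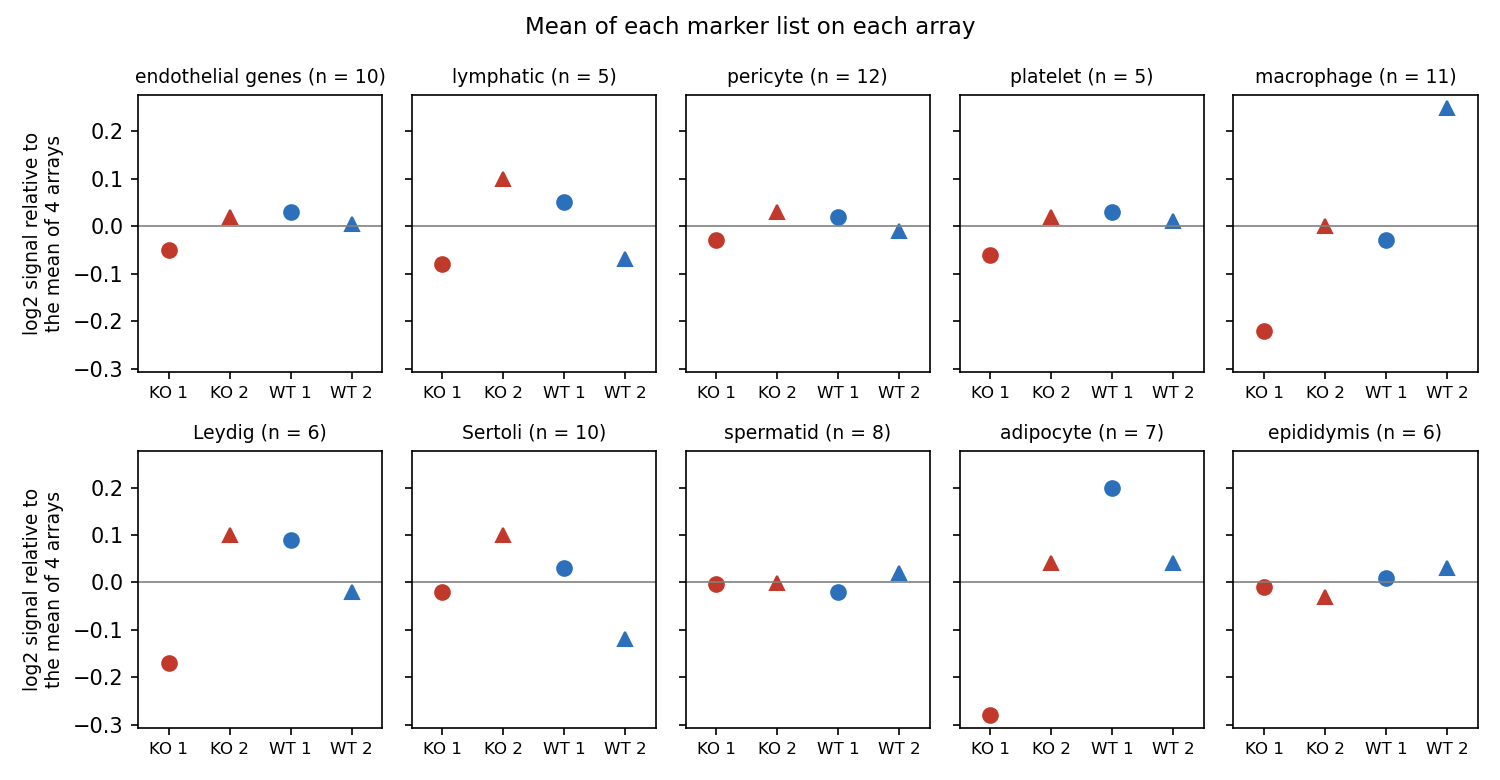
Mean log2 signal of the 10 endothelial genes and of 9 marker lists on each array, relative to the mean of the 4 arrays (vertical axis, shared by all panels). KO arrays are red and stand on the left, WT arrays are blue; the endothelial genes lie between -0.05 and 0.03, while the macrophage markers lie between -0.22 and 0.25, or between -0.18 and 0.16 without Vsig4, which is included in the panel.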

How the data were processed

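RNA from whole testes was hybridized to 4 arrays. The deposited values are log2 signals that the authors obtained with RMA, which corrects background, brings the arrays to one distribution and summarizes probe sets. The submitters' processing notes name Partek 6.13.1224. The genome build and the annotation are not given in the sources used here. The labels describe a 3'IVT labelling kit and the methods cDNA synthesis, for the same arrays.

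Of 35556 probe sets, 23099 are named in the platform annotation. Symbols were updated through gene identifiers, and the probe set with the highest mean stood for a gene. KO was compared with WT in limma 3.58.1 (R 4.3.3, lmFit and eBayes), with p-values adjusted by the Benjamini-Hochberg method over all 23099. The arrays of a genotype are pools of 3 mice. The labels do not say whether the pools hold separate animals, so that p-values measure the spread between these arrays, whose number limits the precision. The fit was also run on simulated data. These were drawn from limma's own model of the variances with independent noise, so they do not test its assumptions on these arrays. Replicate numbers pair nothing in the labels.

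The members and the gene lists were chosen with earlier results of these data known. The text names every member, Azin2, the genes of each other list with the highest and the lowest difference, those past the study's thresholds, and ligands or receptors that pair with a member. Other genes (such as Jag1, Hey1, Hes1, Vcam1, Cd93, Cldn5, Fabp4, Itga2b, Erg, Fli1, Ets1 and the catenins) were named after their values were seen. Alternatives were an intensity trend, robust eBayes, the ordinary equal-variance test, quantile normalization, median centring, a filter on dim probe sets, every row of the table, a replicate block, other thresholds and each array left out.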

Additional observations from a re-analysis of the deposited data

How the results depend on the processing

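Under 12 alternatives, the 10 endothelial genes gave 112 values, as the filter on dim probe sets kept only Cdh5 and Eng. None of these values passed an adjusted p of 0.05 from limma or the ordinary test (the smallest was 0.92), and 0 members passed the thresholds of the study under any of the 12 or at a fold of 1.2. The sign turned in 7 of the 112 values, each time with an array left out. Without KO replicate 1, the differences of Cdh5 (0.09) and Eng (-0.05) turned, without KO replicate 2 that of Tie1 (-0.07), without WT replicate 1 those of Cdh5 (0.000065), Kdr (0.02) and Tie1 (-0.0095), and without WT replicate 2 that of Tek (0.02). With each array left out, Cdh5 ranged from -0.24 to 0.09, Eng from -0.05 to 0.09, Tie1 from -0.07 to 0.08, Kdr from -0.05 to 0.02 and Tek from -0.13 to 0.02. The median of the members, -0.06, ranged from -0.08 to -0.02 when an array was left out, and was -0.03 after the filter on dim probe sets, where fewer members were measured.

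The probe sets past an adjusted p of 0.05 from limma numbered 0 by the ordinary test, 0 with every row of the table (Azin2 at -2.83, adjusted p = 0.0707) and 0 to 2 with an array left out, against 1 in the fit reported. Azin2 was at -2.83 by the ordinary test as well, and between -2.94 and -2.72 with an array left out. The thresholds of the study were passed by 6 probe sets by the ordinary test, 10 above the median level, as fewer were tested, 127 with every row, 200 at a fold of 1.2, and 29 to 69 with an array left out, against 19. For the other changes the cause was not tested. With the replicate number as a block, 24 probe sets passed these thresholds, 1 passed the adjusted p, 0 members were called and their median was -0.06. The deviations of arrays with the same number had a correlation of -0.0818 across probe sets, which are not independent, and the samples share only a number. Where an array was left out, the lone array of a group was assumed to vary like the other group. As each member has 1 probe set, the mean over probe sets was not run. With signals of 8 of the 10 members below the median of the named probe sets, small changes in endothelial transcripts may lie below what these arrays resolve.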
